A study of Homo sapiens with 6 samples.

Results

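Cytochrome c oxidase, complex IV of the mitochondrial respiratory chain, was followed at the level of messenger RNA through the nuclear genes that encode its subunits, their tissue isoforms, its electron donor cytochrome c, and the factors that build it. The gene set took the protein-coding nuclear genes whose symbol begins with COX and a digit (26 genes) and 19 genes added by name, 45 of the 58096 gene rows in the count table. By role, 11 encode structural subunits, 6 tissue isoforms of those subunits, 2 cytochrome c and its haem lyase, 2 haem a synthesis, 8 copper delivery and related proteins, 11 other assembly factors, and 5 supercomplex, HIG-domain or CHCH-domain proteins. The libraries came from SH-SY5Y, a human neuroblastoma line whose cell type is labelled neuronal progenitor. The GFP group (3 libraries) received an adenovirus carrying green fluorescent protein, and the PGC1A group (3 libraries) received an adenovirus carrying PGC-1a, a transcriptional coactivator known for its role in mitochondrial biogenesis. Both groups were infected in DMEM with 10% serum at 80% confluence with 2 ul of virus and collected after 48 h, and poly(A) RNA was sequenced. Neither a virus titre nor a separate culture for each library is given in the labels. P-values therefore measure only how far these samples spread, which could be technical. A difference in virus dose and an effect of PGC-1a cannot be told apart in this design.

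Complex IV takes electrons from cytochrome c and passes them to oxygen, while moving protons across the inner membrane. Its catalytic core is made of subunits encoded in mitochondrial DNA, and a shell of small nuclear-encoded subunits surrounds that core and is built around it. Assembly factors make and insert haem a, load copper, and hold newly made core subunits until they are joined. Some of the shell subunits exist as tissue isoforms, known from heart and skeletal muscle, lung or testis. Nuclear respiratory factor 1 (NRF1), factors of the ETS family such as GABP, and the estrogen-related receptors (ERR) are known regulators of such genes and partners of PGC-1a.

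Upstream sequences of 7 members are shown because they include ETS and NRF1 matches, and promoters with none, over a wide range of response, from COA4, with a log2 fold change of 0.23, to CYCS, with 3.72. They are the 250 bases before the annotated start, in the gene's 5′ to 3′ direction, from the RefSeq promoter table on GRCh38.p14. Capitals mark the letters of a match to an ETS, NRF1 or NRF1 short motif, on either strand. COX5B (chr2:97645812-97646061, plus strand), COX6A1 (chr12:120437863-120438112, plus strand) and COX6B1 (chr19:35648073-35648322, plus strand) encode structural subunits. COA4 (chr11:73876847-73877096, minus strand) encodes an assembly factor with a small response. COX7B (chrX:77899218-77899467, plus strand) and COX5A (chr15:74938074-74938323, minus strand) had the largest rises among the subunits and hold no match. CYCS (chr7:25125261-25125510, minus strand) encodes cytochrome c.
COX5B: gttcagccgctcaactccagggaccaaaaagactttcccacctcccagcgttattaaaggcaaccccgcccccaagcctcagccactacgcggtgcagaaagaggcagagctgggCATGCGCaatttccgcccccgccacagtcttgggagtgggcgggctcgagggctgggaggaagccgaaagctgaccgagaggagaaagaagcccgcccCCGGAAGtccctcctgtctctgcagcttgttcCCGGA
COX6A1: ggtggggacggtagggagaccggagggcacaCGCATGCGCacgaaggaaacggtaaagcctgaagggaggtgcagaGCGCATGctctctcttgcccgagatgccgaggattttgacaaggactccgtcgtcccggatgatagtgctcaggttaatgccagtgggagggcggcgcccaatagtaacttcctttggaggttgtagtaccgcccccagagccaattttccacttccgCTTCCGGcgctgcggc
COX6B1: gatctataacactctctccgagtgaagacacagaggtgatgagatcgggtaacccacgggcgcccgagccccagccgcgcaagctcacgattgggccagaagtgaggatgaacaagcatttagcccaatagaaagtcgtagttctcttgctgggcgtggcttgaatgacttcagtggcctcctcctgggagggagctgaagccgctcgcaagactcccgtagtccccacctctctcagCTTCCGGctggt
COA4: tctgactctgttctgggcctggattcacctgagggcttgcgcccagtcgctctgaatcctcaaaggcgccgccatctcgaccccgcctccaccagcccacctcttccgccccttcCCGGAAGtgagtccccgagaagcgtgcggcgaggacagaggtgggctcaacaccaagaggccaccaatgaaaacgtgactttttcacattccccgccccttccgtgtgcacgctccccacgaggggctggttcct
COX7B: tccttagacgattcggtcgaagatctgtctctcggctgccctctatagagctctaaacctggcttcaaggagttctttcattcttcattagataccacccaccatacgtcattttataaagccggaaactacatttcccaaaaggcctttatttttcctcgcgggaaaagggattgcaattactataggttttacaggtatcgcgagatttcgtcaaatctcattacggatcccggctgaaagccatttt
COX5A: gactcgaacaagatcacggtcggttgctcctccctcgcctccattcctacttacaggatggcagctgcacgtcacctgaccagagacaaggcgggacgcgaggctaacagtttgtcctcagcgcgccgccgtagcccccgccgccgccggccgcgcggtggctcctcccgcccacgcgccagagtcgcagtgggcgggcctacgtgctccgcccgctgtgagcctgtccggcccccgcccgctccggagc
CYCS: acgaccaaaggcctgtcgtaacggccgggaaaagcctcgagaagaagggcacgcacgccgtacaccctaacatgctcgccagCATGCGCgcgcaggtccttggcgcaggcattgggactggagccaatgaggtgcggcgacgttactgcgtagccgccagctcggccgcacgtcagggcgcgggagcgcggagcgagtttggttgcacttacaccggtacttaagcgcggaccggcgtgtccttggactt

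In COX5B an ETS match lies 37 bases before the start, and another begins 5 bases before it and runs past the end of the printed sequence. COX6A1 carries an ETS match 16 bases before the start, on the opposite strand, and COX6B1 has its match 12 bases before the start, also on the opposite strand. In COA4 the ETS match lies 135 bases before the start. The NRF1 match of COX6A1 overlaps a match to the short form.

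The table of promoters holds 300 bases for each annotated start (250 before and 50 after), and 39 of the 45 members matched it. COX6C, SCO2, COX7A1, NDUFA4, COX11 and COX4I2 did not match. Matches were counted on both strands, and the share of promoters of the same length is the background. The ETS core CCGGAAG was found in 17 of 39 members (43.6%), against 10.3% of all 35116 promoters and 15.2% of the 17379 promoters of genes tested for expression. Among these members are COX4I1, COX5B, COX6A1, COX6B1 and COX8A, which are 5 of the 9 structural subunits with a promoter, and 9 of 19 assembly factors. The NRF1 motif GCGCNTGCG was found in 8 members (20.5%), against 7.47% of all promoters and 11.5% of those of tested genes. A shorter NRF1 form, CATGCGC, chosen after the sequences had been seen, was found in 6 members (15.4%), against 4.43% and 6.1%. The ERR motif is AAGGTCA. It was found in COX7A2, COX8A, COX18 and HIGD2A (10.3%), against 3.92% of all promoters and 2.8% of those of tested genes. The YY1 motif AAGATGGCG was found in COX10 (2.56%), against 1.75% and 2.98%. Members with several annotated starts had more chances of a match, and per start the ETS share was 38.3% of 47 promoters and the NRF1 share 19.1%. A match describes the letters of the window and is not evidence of binding.

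**Figure D1:**
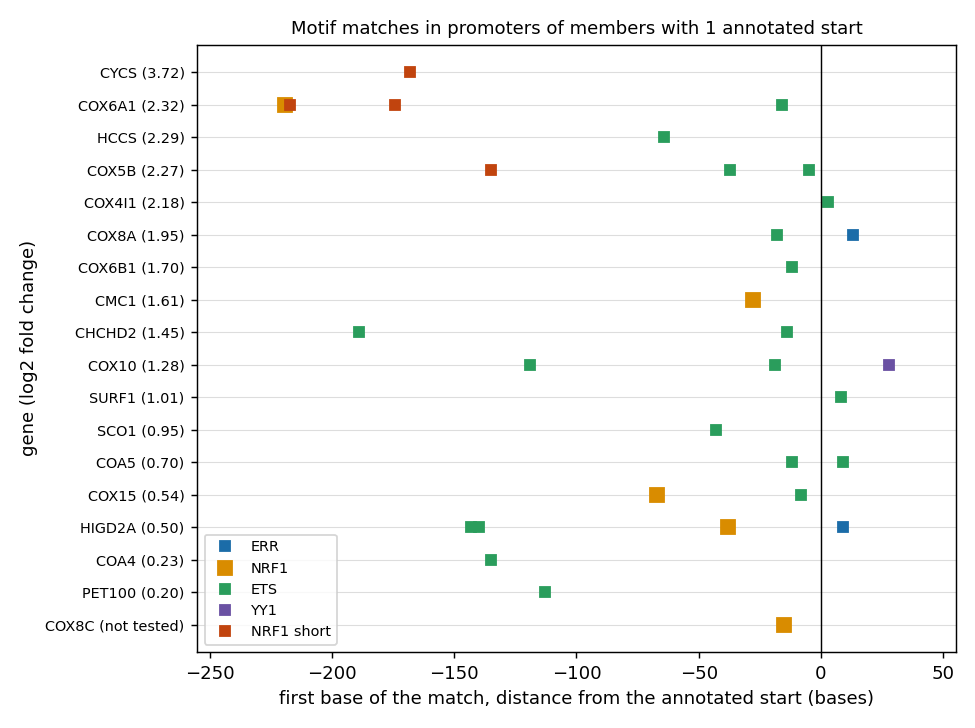
Positions of motif matches in the promoters of members with 1 annotated start. The x axis gives the distance of the first base of a match from the start in bases, each row is a gene with its log2 fold change in brackets, and colours mark the motif. ETS matches occur in genes with a small response, such as COA4 at 0.23, and in genes with a large response, such as COX6A1 at 2.32.

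Libraries held between 24988743 and 31762496 reads assigned to genes. PPARGC1A, the gene of PGC-1a, had 98, 131 and 135 counts under GFP and 109350, 104546 and 103737 under PGC1A, so the libraries matched their labels (log2 fold change 10.07, SE 0.04, adjusted p = 2.06e-70, edgeR). The labelled cell type was checked against neuronal progenitor markers, whose summed level was 1178 to 1204 CPM (TMM-normalised counts divided by library size) in GFP and 491 to 506 in PGC1A, with 4 of 5 lower and 1 higher. Of 7 noradrenergic neuroblastoma markers 6 were tested and 6 were lower, with a summed 778 to 788 CPM in GFP and 439 to 449.8 in PGC1A, while TH, the defining enzyme of catecholamine synthesis, had 0 counts in GFP and 7, 5 and 9 in PGC1A. Mesenchymal-type markers summed to 3120.0 to 3169 CPM in GFP and 1489 to 1514 in PGC1A (5 of 6 lower), and glial markers to 7.58 to 8.38 and 1.88 to 2.35 CPM, with 2 of the 3 tested lower, GFAP higher (from 21 to 76 counts over the 3 libraries) and SOX10 at 0 in every library. Among all genes tested 42.1% were lower, and 23.1% were lower past 1.5-fold (edgeR glmTreat). Past 1.5-fold, 3 noradrenergic, 3 progenitor, 5 mesenchymal-type and 2 glial markers were lower, and 1 glial marker, GFAP, was higher. The smallest noradrenergic fall was that of ISL1 (log2 fold change −0.10). The part of the marker shifts in the results on complex IV was not tested. In bulk RNA, fewer cells of a type and less RNA per cell cannot be told apart.

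Of the 45 members, 42 had enough reads to be tested, and 39 were higher in PGC1A, 1 was lower, and 2 did not pass an adjusted p of 0.05 (edgeR quasi-likelihood test, Benjamini-Hochberg over 19343 genes). Among all genes tested 83.0% passed, 40.9% higher and 42.1% lower. Against a change of 1.5-fold (edgeR glmTreat), 32 members were higher and 1 was lower, where 24.6% of all genes were higher and 23.1% lower. The median log2 fold change of the 42 was 1.44, against −0.03 over all genes tested, and 27 members were at least 2-fold higher. COX4I2, COX6B2, COX7A1 and PET117 reached the count minimum in 1 group only, so a difference was built into their passing, and the remaining 38 reached it in both groups. Total counts in place of TMM moved the median of all genes by −0.33 on the log2 scale, and fold changes given here are relative to the TMM scaling.

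**Figure D2:**
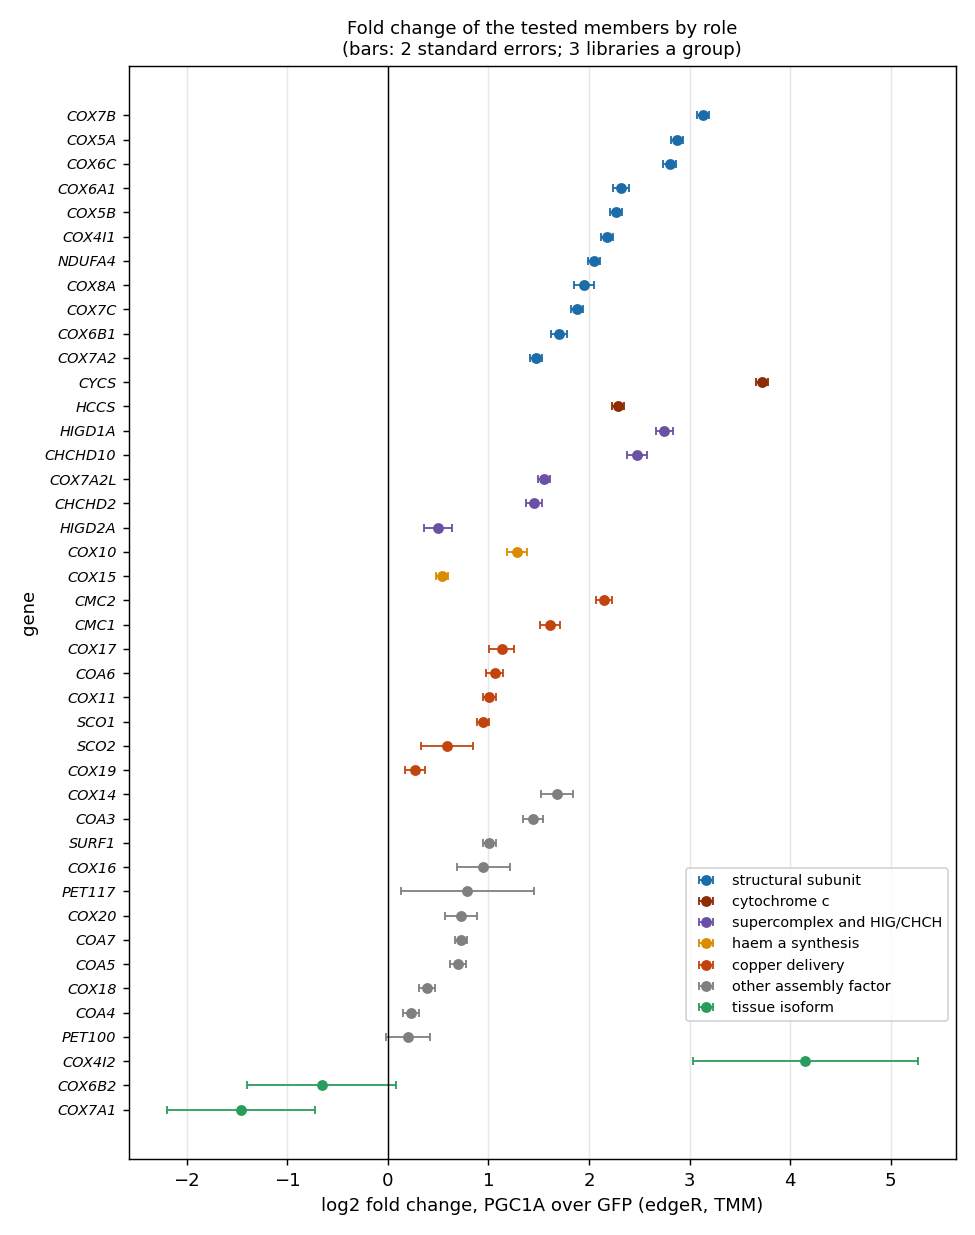
Log2 fold change of PGC1A over GFP for the 42 members tested, grouped by role. Each point is a gene, with bars of 2 standard errors from the edgeR fit of 3 libraries against 3. The structural subunits lie between 1.47 and 3.13, and the assembly factors between 0.20 and 2.15.

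The structural subunits rose together: 11 of 11 were higher in PGC1A, and 11 of 11 passed the 1.5-fold test. Their log2 fold changes ran from 1.47 to 3.13 with a median of 2.18. COX7B, a small subunit of the outer shell, had 60.3, 63.8 and 57.8 CPM in GFP and 557, 517 and 523 in PGC1A. Its groups were far apart, and it had the largest rise of the subunits, 8.78-fold (log2 fold change 3.13, SE 0.03, adjusted p = 1.03e-41, edgeR). COX5A, which binds early to the subunit IV module, had 44.4, 48.4 and 46.6 CPM in GFP and 356, 339 and 328 in PGC1A, a 7.33-fold rise (log2 fold change 2.87, SE 0.03, adjusted p = 7.85e-48). COX6C followed at 2.80, with 72.1 ± 1.95 CPM in GFP and 502 ± 4.30 in PGC1A (SD, n = 3).

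At the other end, COX7A2, the common isoform of subunit VIIa, had 189, 192 and 180.1 CPM in GFP and 541, 514 and 492 in PGC1A. No GFP library came near a PGC1A library, and the rise was 2.76-fold (log2 fold change 1.47, SE 0.03, adjusted p = 9.18e-30, edgeR). COX6B1, which faces the intermembrane space where cytochrome c docks, had 116, 127 and 116 CPM in GFP and 403, 395 and 368 in PGC1A. This was a rise of 1.70 (log2; SE 0.04, adjusted p = 4.73e-20).

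COX4I1, the common isoform of subunit IV, which joins the core early, had 179, 184 and 175 CPM in GFP and 860.0, 812 and 775 in PGC1A. On the log2 scale the rise was 2.18 (SE 0.03, adjusted p = 3.69e-32, edgeR), which is the median of the subunits. COX6A1, the common isoform of subunit VIa, had 32.8, 35.7 and 32.2 CPM in GFP and 178, 166 and 160.1 in PGC1A. It rose by 2.32 (SE 0.04, adjusted p = 4.95e-32). COX8A, the common isoform of subunit VIII, had 13.5, 13.8 and 12.9 CPM in GFP and 55.7, 50.1 and 49.0 in PGC1A (log2 fold change 1.95, SE 0.05, adjusted p = 6.43e-35), and another annotated gene on the same strand covers 34.5% of its exon bases. The zinc-binding subunit COX5B rose from 112 ± 4.39 to 540.5 ± 21.8 CPM (log2 fold change 2.27), and COX7C from 131 ± 4.11 to 483 ± 23.3 CPM (1.88). NDUFA4, first assigned to complex I and later to complex IV, rose from 215 ± 6.31 to 888 ± 39.9 CPM (2.05), inside the range of the other subunits. In every subunit named, the lowest PGC1A library lay above the highest GFP library. The share of all genes with such a separation was not counted, and 83.0% of all genes tested passed an adjusted p of 0.05 (edgeR). The separation is therefore not read as a trait of the subunits.

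Cytochrome c showed a larger rise than any structural subunit. CYCS had 263, 252 and 256 CPM in GFP and 3432, 3352 and 3359 in PGC1A. The groups were separated by more than 10-fold, and the fitted rise was 13.2-fold (log2 fold change 3.72, SE 0.03, adjusted p = 5.24e-60, edgeR). CYCS has 40 pseudogene rows in the table, which held 1.51% of the counts of CYCS and these rows together in GFP and 0.417% in PGC1A. HCCS, the lyase that attaches haem to cytochrome c, had 45.7, 44.4 and 42.3 CPM in GFP and 223, 213 and 208 in PGC1A. All PGC1A values lay above all GFP values, and the rise was 2.29 (log2; SE 0.03, adjusted p = 4.01e-47).

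**Figure D3:**
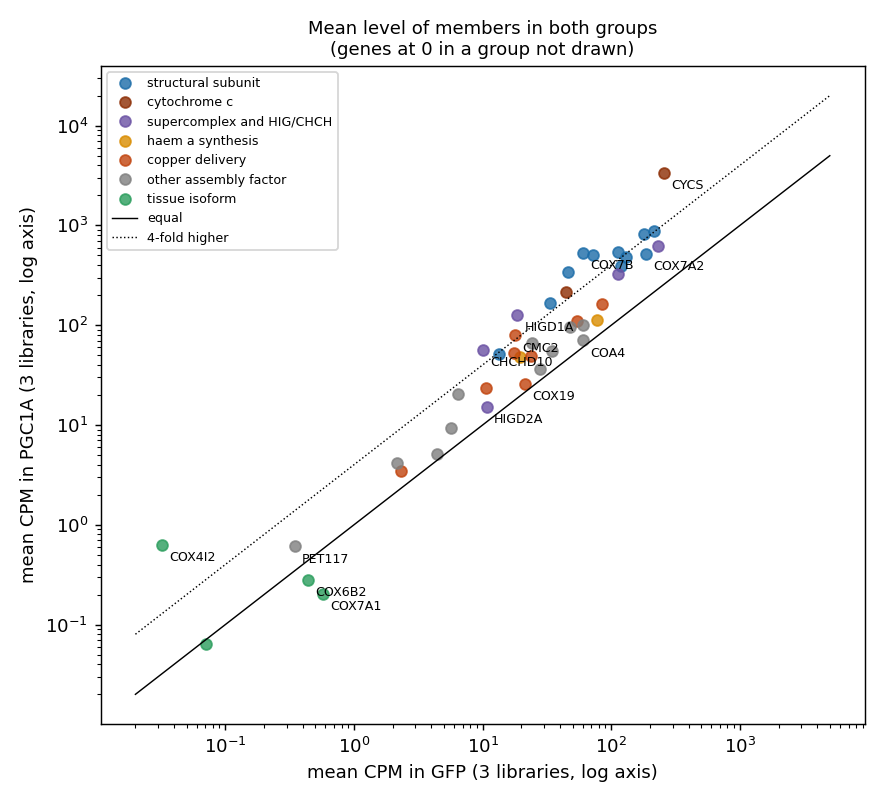
Mean CPM of each member in GFP (x axis) and PGC1A (y axis), both on log axes, with colours for roles. The solid line marks equal levels and the dotted line a 4-fold higher level. CYCS lies at 257 CPM in GFP and 3381 in PGC1A, and COX7A1 lies below the line of equal levels.

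The tissue isoforms stayed at very low counts and moved in different directions. Of 6, 3 had enough reads to be tested, and 1 rose, 1 fell and 1 did not pass. These 3 reached the count minimum in 1 group only, COX4I2 in PGC1A, and COX6B2 and COX7A1 in GFP. A difference was therefore built into their being tested, and their calls are not independent of it. COX4I2 (chr20:31637888-31645006), an isoform of subunit IV known from lung and from the response to low oxygen, had 1, 2 and 0 counts in GFP and 13, 21 and 15 in PGC1A. Every PGC1A library lay above every GFP library, with an adjusted p of 3.33e-09 (edgeR). From 3 counts in all in GFP and 49 in PGC1A, the ratio was 20.1 (95% counting interval 6.49 to 101). Even so, its level per kilobase of transcript was 0.900 CPM in PGC1A, against 934 for COX4I1.

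COX7A1 (chr19:36150922-36152869), the heart and skeletal muscle isoform of subunit VIIa, had 18, 16 and 21 counts in GFP and 5, 4 and 7 in PGC1A. It was the member that fell, with no overlap between the groups (log2 fold change −1.46, SE 0.37, adjusted p = 4.28e-04, edgeR, and adjusted p = 0.00725 against a 1.5-fold change, glmTreat). COX7A1 was tested only because it reached the count minimum in GFP, so these values are not independent of that selection. The count ratio of GFP over PGC1A was 2.79 (95% counting interval 1.58 to 5.22). Its level per kilobase was 0.750 CPM in GFP and 0.268 in PGC1A, against 204 and 564 for COX7A2. COX6B2, the testis isoform of subunit VIb, had 11, 16 and 16 counts in GFP and 4, 8 and 10 in PGC1A. Its highest PGC1A library and its lowest GFP library were both at 0.392 CPM, and the log2 fold change of −0.66 (SE 0.37) did not pass (adjusted p = 0.0980). On the same strand, AC020922.1 shares 30.9% of its exon bases. It passed with upper-quartile factors (−0.78, adjusted p = 0.0480) and with total counts (−0.98, adjusted p = 0.0133).

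The remaining isoforms were at or near 0. COX6A2, the heart and skeletal muscle isoform of subunit VIa, had 0, 2 and 0 counts in GFP and 0 in each PGC1A library. COX8C, a testis isoform of subunit VIII, had 2, 1 and 4 counts in GFP and 1, 2 and 2 in PGC1A, and COX7B2, a testis isoform of subunit VIIb, had 0 in all 6. A floor of 3 counts over a group corresponds to 0.0310 CPM in GFP and 0.0382 in PGC1A, and covers counting error only. Other markers of striated muscle and the male germ line did not all stay low, and markers of lung, named above for COX4I2, were not examined. The 9 striated muscle markers summed to 4.16 to 4.21 CPM in GFP and 137 to 138 in PGC1A: ACTN2, a sarcomere protein, went from 3.53 to 71.3 CPM, DES (desmin) from 0.0407 to 57.4, and CKM, muscle creatine kinase, from 10 to 629 counts over the 3 libraries. Of the 4 tested these 3 were higher and MYH7 did not pass. Among those not tested, TNNT2 went down, from 14 counts over the GFP libraries to 5 over the PGC1A libraries. MYH6 went from 1 to 10 counts and MYOD1 from 1 to 19, while MYOG and MYH2 had at most 3 counts in a group. The 6 male germ line markers summed to 0.891 to 0.996 CPM in GFP and 0.666 to 0.874 in PGC1A, with PRM1, TNP1 and DAZL at 0 in every library and the 1 tested, ACRV1, not past the threshold. Their part in the isoform values was not tested.

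Ratios within a library do not depend on the scaling between libraries, and 8 of 10 pairs of a common gene and its isoform or paralog allowed one. Each log2 ratio (0.5 counts added to each gene) separated the groups without overlap. How often other gene pairs separate was not counted, and 83.0% of all genes tested passed an adjusted p of 0.05 (edgeR). Each ratio gave a two-sided p of 0.1 in an exact permutation test (0.1 after adjustment over the 8 pairs). This is the smallest p that 3 against 3 libraries allow, so none could pass 0.05. COX7A1 had 3.05 counts per 1000 of COX7A2 in GFP and 0.395 in PGC1A, a log2 ratio of −8.32 ± 0.23 against −11.21 ± 0.44 (SD, n = 3), or a difference of −2.88. COX6B2 over COX6B1 differed by −2.39, from −8.04 ± 0.10 to −10.43 ± 0.73. Both isoforms therefore made up a smaller part of their pair in PGC1A. These differences include the rise of the common gene, 1.47 for COX7A2 and 1.70 for COX6B1. COX6B2 on its own did not pass the threshold. COX8C over COX8A differed by −1.93, where COX8A itself rose by 1.95, and rested on 1 to 4 counts of COX8C a library. COX4I2 over COX4I1 went the other way, by 1.85, from −12.19 ± 1.25 to −10.34 ± 0.39, although this size rests on the 0 in GFP replicate 3. With 2 counts added it was 0.76, and without that library it was 1.15.

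**Figure D4:**
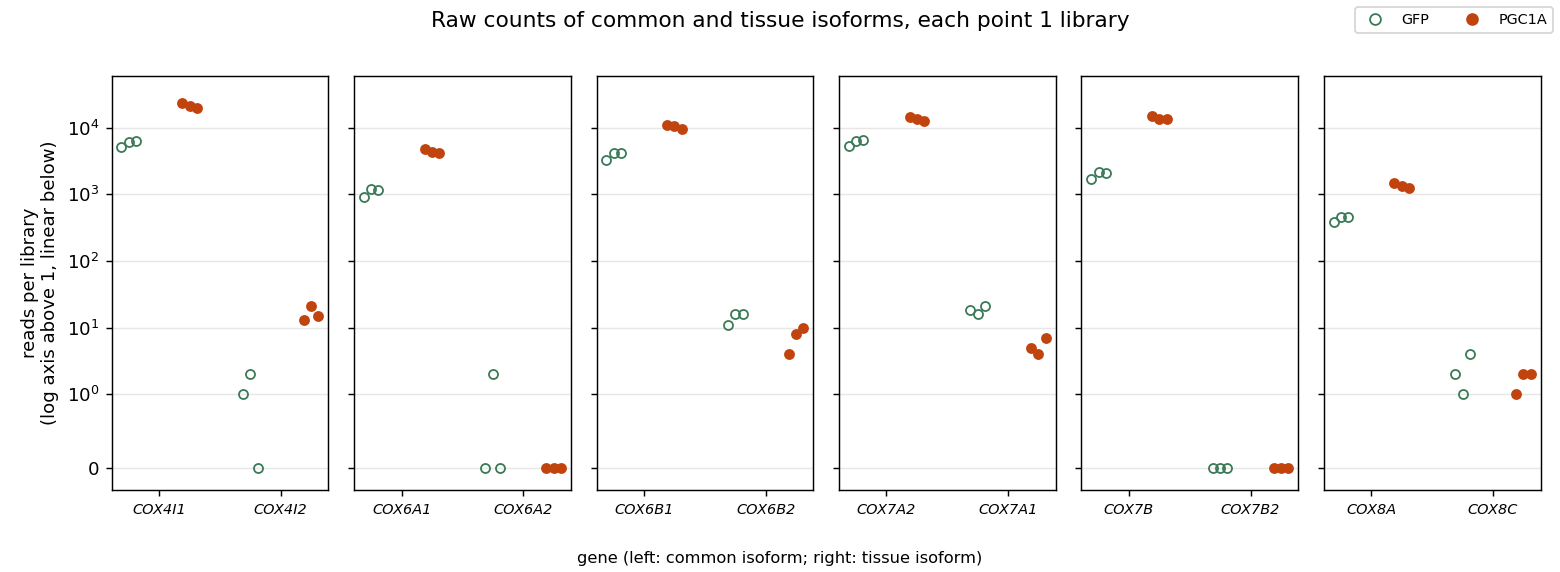
Raw counts of common isoforms (left in each panel) and tissue isoforms (right) in each library, on an axis that is linear below 1 and logarithmic above. Open points are GFP and filled points PGC1A. The highest count is 23004 for COX4I1 and 21 for COX4I2, in different PGC1A libraries. COX7A1 falls from 16 to 21 counts in GFP to 4 to 7 in PGC1A.

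The 21 assembly factors rose less than the subunits: 20 were higher, 0 were lower and 1 did not pass, and 14 passed the 1.5-fold test. The 20 include PET117, which was tested only because it reached the count minimum in PGC1A. Their median log2 fold change was 0.95, against 2.18 for the 11 subunits. Of the subunits, 6 lay above the largest assembly value, and 18 of 21 assembly factors lay below the smallest subunit value, while 0 of 21 reached the subunit median. This holds for the 21 in the set. Of 11 further assembly genes outside it, with a median of 1.29, TACO1 (2.25) and SLC25A3 (2.36) lay above the subunit median. Within each library, the mean log2 level of the subunits exceeded that of the assembly factors by 2.26, 2.33 and 2.23 in GFP and by 3.64, 3.61 and 3.61 in PGC1A. This gap was wider in every PGC1A library than in any GFP library. A small constant was added to each CPM before the log, so the gap is not wholly free of the scaling. The medians of subunits and assembly factors were 1.85 and 0.62 with total counts, 2.06 and 0.82 with upper-quartile factors, and 2.22 and 0.98 with RLE factors.

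**Figure D5:**
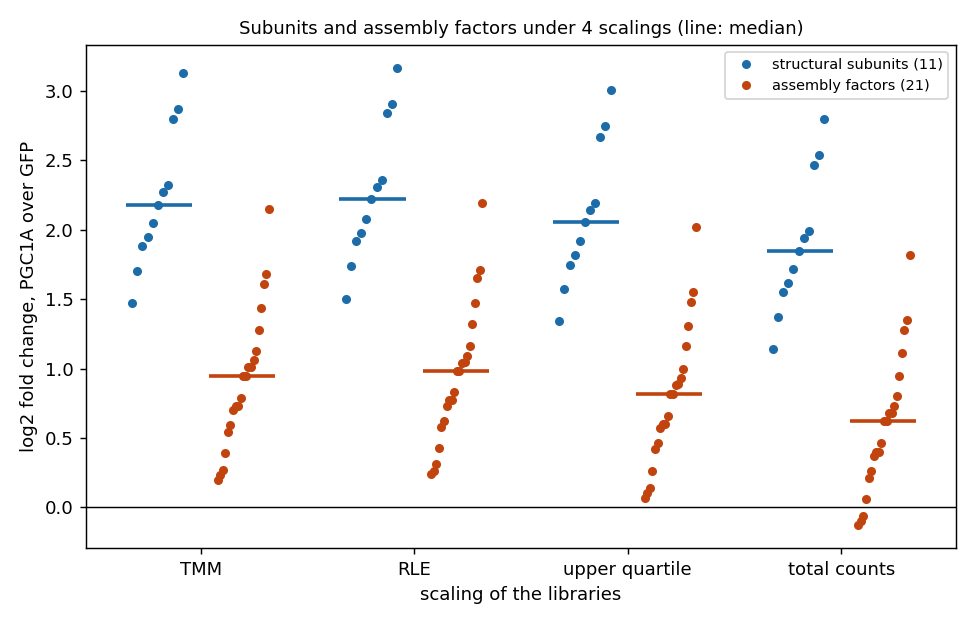
Log2 fold changes of the 11 structural subunits and 21 assembly factors under 4 scalings of the libraries, with a line at each median. Points of the subunits stay above 0 under all 4 scalings, and with total counts some assembly factors fall to or below 0.

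Haem a is made from haem b by COX10, which adds a farnesyl group, and COX15, which oxidises the product. COX10 had 20.1, 20.8 and 18.3 CPM in GFP and 49.4, 47.1 and 47.2 in PGC1A. It more than doubled, with clear separation of the groups (log2 fold change 1.28, SE 0.05, adjusted p = 1.41e-29, edgeR). COX15 had 78.5, 78.0 and 75.3 CPM in GFP and 117, 111 and 109 in PGC1A. Its groups were also separate, but the rise of 0.54 (SE 0.03, adjusted p = 2.24e-21) did not pass the 1.5-fold test (adjusted p = 1.00).

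Among the 8 copper delivery and related proteins, 8 were higher and 6 passed the 1.5-fold test, with a median of 1.04. CMC2, a CX9C-motif protein of the intermembrane space, had 17.7, 17.8 and 18.0 CPM in GFP and 80.7, 77.2 and 79.5 in PGC1A. Its replicates were tight, and it had the largest rise of the 21 assembly factors in the set (log2 fold change 2.15, SE 0.04, adjusted p = 1.02e-41, edgeR). COX19, another CX9C protein, linked to COX11, had 22.1, 20.2 and 22.1 CPM in GFP and 25.8, 23.9 and 28.1 in PGC1A. The groups did not overlap, but the rise was small (0.27, SE 0.05, adjusted p = 1.76e-05; adjusted p = 1.00 against 1.5-fold), and with total counts the value turned to −0.06 (adjusted p = 0.325).

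The copper chaperone COX17, which hands copper to the SCO proteins and to COX11, rose from 10.7 ± 0.671 to 23.3 ± 1.36 CPM (1.13), and COX11, which serves the copper site of the COX1 subunit, from 54.4 ± 1.79 to 109.8 ± 3.12 CPM (1.01). SCO1, which metallates the COX2 subunit, had 85.2, 83.0 and 85.0 CPM in GFP and 165, 161 and 162 in PGC1A. This near doubling held in each library (log2 fold change 0.95, SE 0.03, adjusted p = 3.23e-33, edgeR). Its paralog SCO2 had 2.35, 2.41 and 2.13 CPM in GFP and 3.78, 3.49 and 3.06 in PGC1A. SCO2 was higher with no overlap, by 0.59 (SE 0.13, adjusted p = 9.23e-05), did not pass the 1.5-fold test (adjusted p = 0.431), and with total counts gave 0.26 (adjusted p = 0.0686). SCO2 over SCO1 differed by −0.37 (27.2 counts per 1000 of SCO1 in GFP, 21.2 in PGC1A). COA6, which acts with the SCO proteins, rose from between 22.6 and 24.9 CPM to between 48.7 and 49.8 (1.06), and CMC1, known to bind newly made COX1, from 17.4 ± 0.514 to 53.0 ± 1.72 CPM (1.61).

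Of the 11 other assembly factors 10 were higher and 1 did not pass, and 7 passed the 1.5-fold test, with a median of 0.73. The 10 include PET117, whose call has the limit given below. COX14, which holds newly made COX1 together with COA3, had 7.24, 5.52 and 6.49 CPM in GFP and 21.8, 21.0 and 18.4 in PGC1A. It had the largest rise of this group, with all PGC1A libraries above all GFP libraries (log2 fold change 1.68, SE 0.08, adjusted p = 1.01e-22, edgeR). COA3 rose from 24.4 ± 0.684 to 65.9 ± 4.90 CPM (1.44), so both partners were among the larger rises of the group. SURF1, the assembly factor mutated in Leigh syndrome, rose from 47.8 ± 1.88 to 96.2 ± 2.68 CPM (1.01). Among factors linked to the COX2 subunit, COX16 rose from 2.16 ± 0.252 to 4.20 ± 0.157 CPM (0.95), COX20 rose from 5.67 ± 0.205 to 9.41 ± 0.612 (0.73), and COX18, which inserts part of COX2 into the membrane, rose from 27.9 ± 0.283 to 36.5 ± 0.207 (0.39, adjusted p = 2.25e-11, lost with total counts at 0.06, adjusted p = 0.204).

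COA5 (0.70) and COA7 (0.73) rose to 55.8 ± 1.77 and 99.6 ± 2.94 CPM. COA4, a CX9C protein, had 58.1, 63.5 and 58.9 CPM in GFP and 74.5, 67.3 and 69.4 in PGC1A. The groups were separate by a narrow margin (log2 fold change 0.23, SE 0.04, adjusted p = 7.37e-07, edgeR), and total counts turned the call to lower (−0.10, adjusted p = 0.00847). PET100, needed for an early assembly step, had 4.06, 4.50 and 4.75 CPM in GFP and 5.79, 4.90 and 4.66 in PGC1A. Its groups overlapped, and the value of 0.20 (SE 0.11) did not pass (adjusted p = 0.0756), turning to −0.13 (adjusted p = 0.253) with total counts. It passed with RLE factors (0.24, adjusted p = 0.0365) and without PGC1A replicate 3 (0.27, adjusted p = 0.0255). PET117, linked to haem a synthesis in yeast, had 8, 9 and 17 counts in GFP and 17, 19 and 12 in PGC1A. PET117 was tested only because it reached the count minimum in PGC1A, so its call is not independent of that selection. Its groups overlapped too, and its call (0.79, SE 0.33, adjusted p = 0.0237) was lost with upper-quartile factors, total counts and DESeq2, and without GFP replicate 1 or 2 or PGC1A replicate 1 or 2 (0.63 to 0.77).

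Exons of 12 of the 45 members share at least 20% of their bases with another gene of the table, and whether reads were counted by strand is not given in the sources used here. Among assembly factors, 72.0% of COX20 lies opposite HNRNPU, 62.4% of PET117 is shared with KAT14 on the same strand, 48.8% of SCO2 and 42.5% of COA3 (opposite WNK4) lie opposite other genes, 36.0% of COX16 is shared with the read-through gene SYNJ2BP-COX16, 33.4% of CMC1 lies opposite AZI2, and 21.4% of COX19 is shared with ADAP1. Values of these genes are less certain than those of the subunits, of which COX8A alone passed 20%. Pseudogene rows exist for 16 members, and their largest share was that of COX20. They held 17.3% of the counts of COX20 and these rows together in GFP and 20.6% in PGC1A.

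Proteins that join or accompany complex IV rose in 5 of 5 cases, 4 of them past 1.5-fold, by sizes that differed between paralogs. COX7A2L, which joins complex III and complex IV into supercomplexes, had 109.7, 115 and 111 CPM in GFP and 341, 332 and 311 in PGC1A. Its rise of 1.55 (SE 0.03, adjusted p = 8.59e-37, edgeR) was close to that of COX7A2, and the ratio of the pair differed by 0.08, from −0.74 ± 0.04 to −0.65 ± 0.02. HIGD1A, a hypoxia-inducible protein that binds complex IV, had 18.1, 18.4 and 19.4 CPM in GFP and 130.5, 123 and 124 in PGC1A. This was the largest rise of the group, 6.74-fold (log2 fold change 2.75, SE 0.04, adjusted p = 3.00e-47), in a gene with 34.1% of its exon bases shared on the same strand.

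HIGD2A, its paralog, which acts in the assembly of the COX3 module, had 11.2, 11.0 and 10.2 CPM in GFP and 16.0, 14.1 and 15.7 in PGC1A. It rose by 0.50 (SE 0.07, adjusted p = 4.68e-09, edgeR) without passing the 1.5-fold test (adjusted p = 1.00), and 34.0% of its exon bases lie opposite NOP16. Counts of HIGD2A per 1000 of HIGD1A were 576 in GFP and 121 in PGC1A, a difference of −2.26 on the log2 scale, so the excess of HIGD1A over HIGD2A was larger in every PGC1A library than in any GFP library.

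CHCHD2, a mitochondrial CHCH-domain protein that binds complex IV, had 229, 241 and 219 CPM in GFP and 662, 629 and 595 in PGC1A. Its groups were well apart (log2 fold change 1.45, SE 0.04, adjusted p = 5.61e-12, edgeR). CHCHD10, its paralog, a gene of inherited motor neuron disease, had 10.1, 10.4 and 9.72 CPM in GFP and 59.1, 54.4 and 55.1 in PGC1A. It rose more (2.48, SE 0.05, adjusted p = 3.67e-40), and its counts per 1000 of CHCHD2 went from 43.9 to 89.4, a log2 difference of 1.03 with no overlap between the groups.

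The mitochondrial DNA-encoded core, whose transcripts are not members, rose by 0.87 to 1.14 on the log2 scale, below the smallest rise of the nuclear subunits, 1.47. MT-CO1, the catalytic subunit that holds haem a, had 7089, 7489.7 and 7312 CPM in GFP and 16020.0, 16023 and 16288 in PGC1A. The groups did not overlap (log2 fold change 1.14, SE 0.02, adjusted p = 1.60e-40, edgeR). MT-CO2, which receives electrons from cytochrome c, went from 3241 ± 138 to 6256 ± 414 CPM (0.95), and MT-CO3 from 4383 ± 150.1 to 8023 ± 128 (0.87). Summed CPM of the core over that of the 11 nuclear subunits was 12.4, 12.8 and 13.1 in GFP and 5.65, 5.83 and 5.97 in PGC1A, so the ratio was lower in every PGC1A library. The nuclear subunits together held 0.131%, 0.135% and 0.127% of gene counts in GFP and 0.481%, 0.463% and 0.453% in PGC1A.

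A further 11 assembly genes outside the set (COA1, COA8, SMIM20, TACO1, TIMM21, TMEM177, OXA1L, LRPPRC, SLIRP, CEP89 and SLC25A3) gave 10 higher and 1 lower, with a median of 1.29. The largest rise was that of SLC25A3, the carrier that brings phosphate and copper into the matrix, which went from 306 ± 5.89 to 1575 ± 38.8 CPM (edgeR log2 fold change 2.36, SE 0.02, adjusted p = 7.69e-53). CEP89, a centrosomal protein also linked to complex IV, went the other way, from 50.8 ± 0.779 to 28.6 ± 1.43 CPM, and fell by 0.83 (SE 0.04, adjusted p = 1.36e-23). Most subunits of the other complexes were higher too. Of 37 complex I subunits 35 were higher, 1 lower and 1 not past the threshold (median 1.97), of 9 in complex III 9 were higher (2.36), and of 18 in ATP synthase 17 were higher and 1 did not pass (1.89). The complex IV subunits, at a median of 2.18, lay inside this range of medians.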

How the data were processed

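Poly(A) RNA of 6 SH-SY5Y libraries was compared, 3 GFP and 3 PGC1A, grouped by their titles. The values the authors deposited are raw counts of reads for each gene. GRCh38, HTSeq 0.10.0, STAR 2.6.0c, DRAGEN and DESeq2 1.20.0 appear, without roles, among the submitters' processing notes. Neither annotation release nor strand setting is given in the sources used here. The 5 summary rows (28.8% to 31% of reads) were left out of library sizes and tests. Reads with several alignments were 12.4% to 14.4%, which lowers the counts of genes with close copies. Symbols, coordinates and exon overlaps came from GENCODE 29.

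The fit used edgeR 4.0.16 (R 4.3.3) with TMM factors, filterByExpr (minimum count 10, total 15), robust glmQLFit and glmQLFTest, group as the only term, two-sided, with Benjamini-Hochberg adjustment over 19343 genes, and glmTreat at 1.5-fold. It was tested on simulated data. Within-group correlations of log2 CPM across genes were 0.995 to 0.996, and between groups 0.892 to 0.895. Replicates differed by more than counting noise (chi-square per degree of freedom 1.24 to 2.72). Counting intervals cover counting error only.

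The members, lists and motifs were chosen with earlier results of these data known. Values in every library were given for isoform and paralog pairs, for the largest and smallest change in each role, and for members that fell or did not pass. COX5A and COX6A1 were added after their values were seen. COA4 and PET117 were also given in every library, outside that rule. The alternatives were RLE, upper-quartile and total-count scaling, no filter, 1 CPM in 3 libraries, DESeq2 1.42.0, a replicate block, and each library left out.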

Additional observations from a re-analysis of the deposited data

How the results depend on the processing

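Of 542 member values under the alternatives, 526 kept their direction and their side of the threshold, 9 lost the call, 4 gained one and 3 changed sign. For 35 of 42 members no alternative run that gave a value changed the direction or the call. The filter of 1 CPM in 3 libraries gave no value for COX4I2, COX6B2, COX7A1 and PET117. COX4I2 and COX7A1 are among the 35 although that filter removed them. The sign changes came with total counts: COX19 at −0.06, COA4 at −0.10 and PET100 at −0.13. The number of members lower was 1, and became 2 with upper-quartile factors, 3 with total counts and 0 with the filter of 1 CPM in 3 libraries, which removed COX7A1 and likewise left 0 members lower past 1.5-fold. Total counts gave 1 assembly factor lower. Over all genes, total counts gave 5778 higher and 10743 lower, and upper-quartile factors 7047 and 9234. The 8 isoform and paralog ratios kept their direction under the alternatives run for them, where leaving out a library allows a smallest p of 0.2. Replicate numbers did not pair the libraries (correlations of deviations of −0.0114, 0.00628 and 0.0109), and the replicate block gave 7914 genes higher and 8157 lower and changed no member's call (smallest sign-flip p for a ratio 0.25). Depth limits the tissue isoforms, which had at most 55 counts in a group.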
